A study of Homo sapiens with 9 samples.

Results

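The genes described here are 8 C-type lectin genes of myeloid cells, CLEC5A, CLEC4A, CLEC4D, CLEC4E, CLEC7A, CLEC12A, CLEC2B and CLEC11A. They were chosen by name, and all 8 have 1 row each in both deposited tables, out of 36119 loci (knockout table) and 35856 loci (treatment table). RNA sequencing gave their levels in 9 libraries of NB4, a human cell line from acute promyelocytic leukaemia. NB4 cells carry the fusion gene PML-RARA, and retinoic acid (RA) makes them mature towards granulocytes. The treatment table has 1 library per condition, all after 24 h: DMSO (the vehicle), MC_2580 (an LSD1 inhibitor by its label, dose not given), RA 0.01 uM, RA 1 uM, and MC_2580 together with RA 0.01 uM, the combination in what follows. LSD1 removes methyl groups from histone H3. The knockout table holds 2 libraries of LSD1 KO cells and 2 of WT cells, all labelled as not treated. How many clones the KO libraries came from is not stated, and the column entries of the table give both KO libraries the same name apart from the replicate. Nothing says that the replicates were separate cultures, so p-values measure the spread between these libraries, which may be technical.

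C-type lectin receptors are cell-surface proteins with a shared fold that binds sugars, lipids or proteins. Activating members signal through an adaptor or a short motif in their own tail to the kinase SYK and on to CARD9, BCL10 and MALT1, which switch on cytokine genes. Inhibitory members carry a tail motif that recruits phosphatases such as PTPN6. On granulocytes and monocytes they serve to recognise fungi, mycobacteria and dying cells. CLEC11A differs from the label of receptor: it encodes a secreted growth factor with a C-type lectin domain. CLEC2B is mainly known as a ligand, for the receptor KLRF1 of natural killer cells.

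Of the 8 genes, 6 lie on chromosome 12 (build hg18) between positions 8167493 and 10174135, in the stretch known as the natural killer gene complex. CLEC5A lies on chromosome 7 (141273626 to 141293252) and CLEC11A on chromosome 19 (55918417 to 55920791). Each position is that of the whole locus, exons and introns together. In the table CLEC4A shares its span with ZNF705A and AC092111.9, and CLEC12A with CLEC1B. The counting is not stated to use strand, so values of genes that share a span are less certain.

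The 250 bases before the start site are shown for CLEC5A, the gene that passed the test in KO cells, and CLEC12A, the gene past 2-fold in MC_2580 alone, to show what sequence lies there. They are RefSeq sequences of build GRCh38.p14, which held 4 of the 8 genes. The capitals mark AGGAAG, the core bound by ETS factors such as PU.1, a regulator of myeloid genes.
CLEC5A, chr7:141946975-141947224, minus strand: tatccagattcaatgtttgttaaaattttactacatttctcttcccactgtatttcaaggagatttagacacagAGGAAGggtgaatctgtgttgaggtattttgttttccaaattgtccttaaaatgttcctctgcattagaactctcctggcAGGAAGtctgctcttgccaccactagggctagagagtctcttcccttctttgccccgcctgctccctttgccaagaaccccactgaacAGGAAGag
CLEC12A, chr12:9971159-9971408, plus strand: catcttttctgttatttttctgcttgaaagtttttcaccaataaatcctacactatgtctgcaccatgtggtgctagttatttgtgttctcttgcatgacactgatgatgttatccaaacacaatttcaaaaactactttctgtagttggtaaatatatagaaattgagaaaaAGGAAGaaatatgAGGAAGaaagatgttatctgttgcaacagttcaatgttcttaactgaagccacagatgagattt
AGGAAG, searched on both strands, had 3 matches in CLEC5A, 2 in CLEC12A, 2 in CLEC4E and 1 in CLEC11A, and 28.7% of 35116 promoters of that length hold it. AATC, the core bound by GFI1, a repressor that works with LSD1, had 3 matches in CLEC5A, 2 in CLEC12A, 1 in CLEC4E and 2 in CLEC11A, against 64.8% of promoters. TTGCNNAA, a site of C/EBP factors, matched in CLEC4E alone of the 4 (9.05% of promoters), and AGGTCA, the half-site of retinoid receptors, in none of the 4 (12.1%). No match overlapped another. These matches describe the letters in the window and were not tested as sites.

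The targeted gene was checked first. KDM1A, which encodes LSD1 and is listed as AOF2, stood at 14.0 and 16.8 FPKM (fragments scaled to transcript length and to library size) in KO replicates 1 and 2 and at 49.8 and 66.6 in WT, so that KO held 28.1% and 25.2% of the WT level. The authors' test of the second pair has a failed status, so the gene was not in the fit. In the treatment table it was at 50.8 to 69.9 FPKM. Per library, 11967 to 13365 loci reached 1 FPKM, and the 10 highest loci held 50.5% to 65.7% of the FPKM sum. Read totals are not given, so depth is unknown and no counting interval is set. Of 6 promyelocyte markers 5 were above 1 FPKM in every library, with MPO at 2454.3 to 6518.1, while ELANE (listed as ELA2) was at 0.242 or less. None of the 6 dendritic cell markers reached 1 FPKM in any library.

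**Figure D1:**
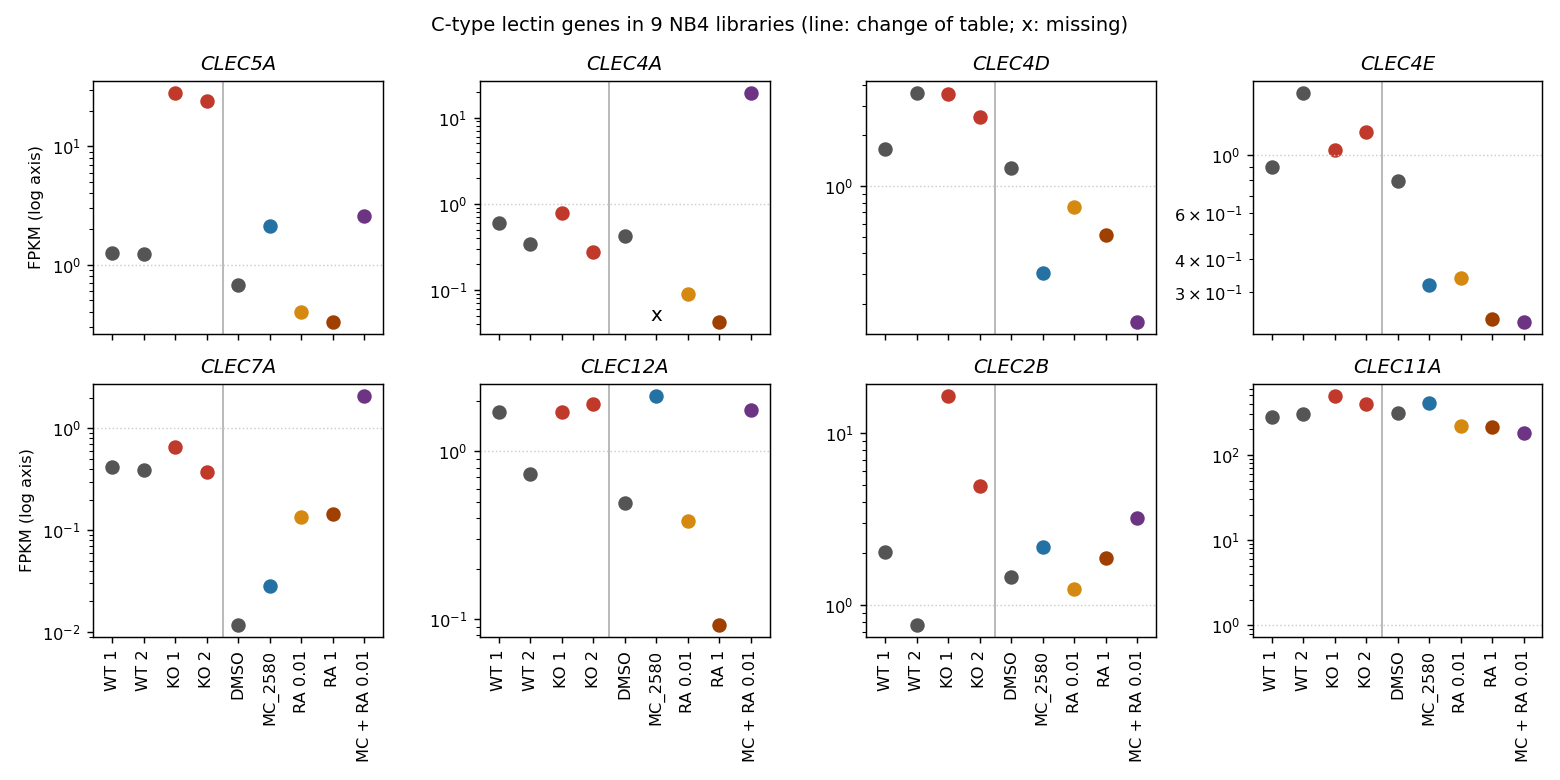
FPKM (log axis, its range differing between panels) of the 8 genes in the 9 libraries, 1 point per library and an x for the missing CLEC4A value in MC_2580, with a vertical line between the 2 separately normalized tables and a dotted line at 1 FPKM. CLEC5A stands at 24.4 and 28.5 in KO and under 3 elsewhere, CLEC4A at 19.5 in the combination and under 1 in the other 7 libraries with a value, and CLEC11A at 180.5 to 496.9 throughout.

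In LSD1 KO cells CLEC5A rose from about 1 FPKM to over 20. This receptor, also called MDL-1, pairs with the adaptors TYROBP (DAP12) and HCST (DAP10) and is known for driving inflammatory responses of neutrophils and macrophages. It stood at 28.5 FPKM in KO replicate 1, 24.4 in KO replicate 2, 1.25 in WT replicate 1 and 1.22 in WT replicate 2. Both KO libraries lay far above both WT libraries, and the libraries within a group were close. The means were 26.5 ± 2.85 (SD, n = 2) in KO and 1.24 ± 0.0233 (SD, n = 2) in WT, 21.4-fold apart. On the log2(FPKM + 1) scale used in all tests below, which understates changes of low genes, the difference was 3.61 (SE 0.16) with an adjusted p of 0.0452 in limma (Benjamini-Hochberg over 13150 loci). It ranked 38 of 13150 loci by rise. CLEC5A was the 1 of the 6 tested C-type lectin genes that passed, and in that fit 15 loci in all passed (0.114%), 8 higher in KO (0.0608%) and 7 lower (0.0532%). With only protein-coding genes in the fit its adjusted p was 0.0208, and 0.592% of them passed (0.431% higher and 0.16% lower). In the authors' deposited table CLEC5A was called in both pairs of libraries, with q-values of 0.0113 and 0.0113, where it calls 0.746% and 0.632% of the loci the authors tested in the first and second pair. The adjusted p rose to 0.134 without WT replicate 1, 0.154 without WT replicate 2, 0.161 without KO replicate 1 and 0.152 without KO replicate 2, fits that give a lone library the spread of the other group, and in which no locus passed. It was 0.147 with no filter on low values and 0.0522 when only loci that averaged 5 FPKM or more in a group were tested, while the difference stayed between 3.51 and 4.31 in all 11 alternatives.

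CLEC2B and CLEC11A were higher in both KO libraries than in both WT libraries but did not pass the test. CLEC2B, also called AICL, was at 16.6 FPKM in KO replicate 1, 4.96 in KO replicate 2, 2.05 in WT replicate 1 and 0.761 in WT replicate 2. The groups did not overlap, yet replicate 1 was the higher library within each group, by 1.56 (log2) in KO and 0.79 in WT. The difference was 2.15 (SE 0.65, unadjusted p 0.0322, adjusted p 0.628 in limma). The authors' deposited table calls CLEC2B for the first pair (q-value 0.0113) and not for the second (q-value 0.0816). CLEC11A, the secreted growth factor for blood and bone progenitors, was at 496.9 and 392.4 FPKM in KO and at 276.9 and 304.9 in WT. Its difference was 0.60 (SE 0.23, adjusted p 0.734 in limma), with WT at 290.9 ± 19.8 and KO at 444.7 ± 73.9 (SD, n = 2 each). FPKM is per length, so levels can be set side by side: in every library CLEC11A was the highest of the 8 genes.

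The receptors for mycobacterial glycolipids, CLEC4D (MCL) and CLEC4E (Mincle), which signal through FCER1G, did not separate the groups. CLEC4D was at 3.51 and 2.57 FPKM in KO and 1.66 and 3.59 in WT, a difference of 0.20 (SE 0.36, adjusted p 0.951 in limma). CLEC4E was at 1.04 and 1.22 in KO and 0.9 and 1.73 in WT, a difference of -0.10 (SE 0.30, adjusted p 0.983 in limma). In both genes the 2 WT libraries lay on either side of the KO libraries, and the sign turned when 1 WT library was left out, to -0.19 for CLEC4D without WT replicate 1 and to 0.16 for CLEC4E without WT replicate 2. CLEC12A (also MICL or CLL-1), an inhibitory receptor and a surface antigen of acute myeloid leukaemia cells, was at 1.71 and 1.91 in KO and 1.72 and 0.732 in WT (difference 0.37, SE 0.32, adjusted p 0.857 in limma). Its groups overlapped at WT replicate 1.

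CLEC4A (DCIR), an inhibitory receptor that recruits phosphatases, and CLEC7A (Dectin-1), the receptor for fungal beta-glucan, were under 1 FPKM in all 4 libraries and were not tested. CLEC4A was listed at 0.773 and 0.276 in KO and 0.593 and 0.34 in WT. CLEC7A was listed at 0.661 and 0.371 in KO and 0.417 and 0.387 in WT. For the 6 genes tested the median difference was 0.48, against -0.02 over all 13150 loci, with 5 above 0. In 3 of the 6 both KO libraries lay above both WT libraries, as in 17.9% of all loci tested (16.1% had both below). At an unadjusted p under 0.05 there were 2 of the 6, and 943 of all loci.

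**Figure D2:**
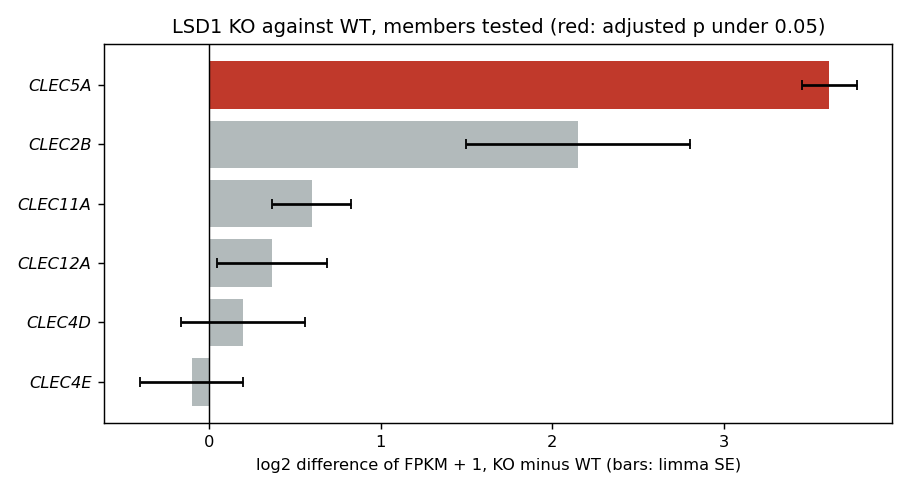
Difference of log2(FPKM + 1) between LSD1 KO and WT (x axis) for the 6 genes tested, with 2 libraries a group; bars reach the fitted difference and whiskers give the limma standard error. CLEC5A at 3.61 is the 1 gene past an adjusted p of 0.05 (red), CLEC2B at 2.15 has a standard error of 0.65, and CLEC4E at -0.10 is the 1 gene below 0.

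The genes around CLEC2B on chromosome 12 were examined next. Between the start of CLEC4A and the end of CLEC7A, 2.01 Mb, the knockout table has 46 loci, 40 of them not among the 8 genes, and 17 were tested. None passed in limma, and 1 of the 13 that are not among the 8 genes had an unadjusted p under 0.05. A difference of at least 1 was seen in 3 of the 17 (4.84% of all loci tested), namely CLECL1, CD69 and CLEC2B, which lie within 147.4 kb. CLECL1 and CD69 are named after their values were seen. CLECL1, a C-type lectin-like gene, was at 46.5 and 40.6 FPKM in KO and 3.29 and 5.0 in WT. Its difference was 3.13 (SE 0.24, adjusted p 0.0739 in limma), and in the authors' deposited table it is called in both pairs. CD69, an early activation antigen of lymphocytes, was at 8.51 and 1.39 in KO and 0.936 and 0.118 in WT (difference 1.70, SE 0.80, adjusted p 0.815 in limma). CD69 was under 1 FPKM in both WT libraries and was tested only because KO was high. Its place in the count of 3 therefore describes it and supports nothing further. As in CLEC2B, replicate 1 of CD69 was the higher library in both groups. KLRF1, which lies between CD69 and CLEC2B and encodes the receptor for CLEC2B, was at 0.0416 FPKM or less in every library. Under treatment CLECL1 stayed between 1.95 (DMSO) and 3.44 FPKM (combination).

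**Figure D3:**
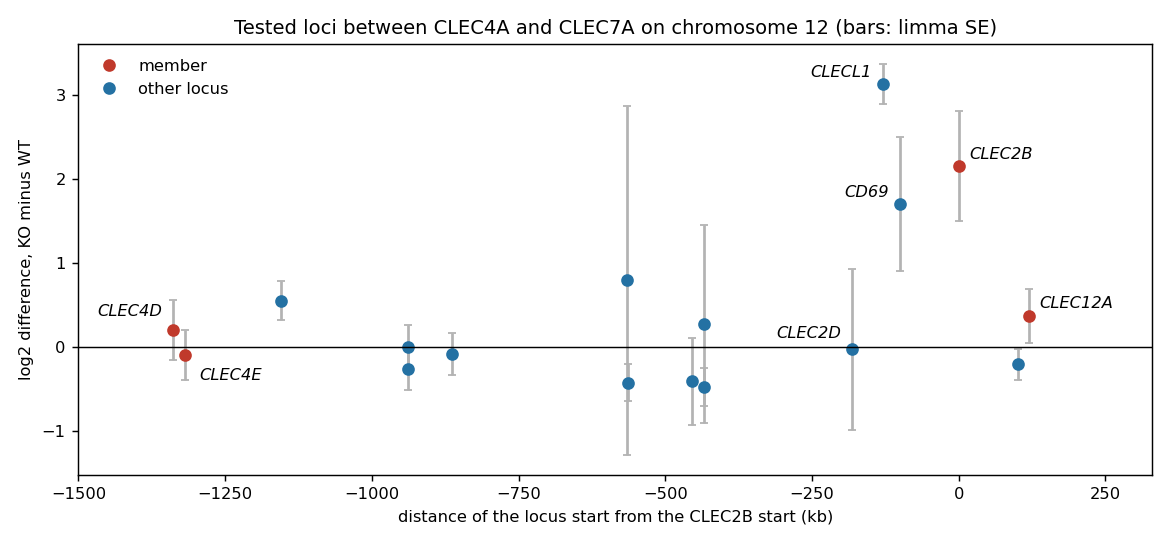
Differences of log2(FPKM + 1) between LSD1 KO and WT (y axis, bars give the limma standard error) for the 17 tested loci between CLEC4A and CLEC7A on chromosome 12, placed by the distance of their start from that of CLEC2B (x axis, kb). CLECL1 (3.13), CLEC2B (2.15) and CD69 (1.70) are the 3 loci above 1, and the bar of CD69 is 0.80 either way.

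The treatments have 1 library each, so sizes are given with no test. A gene counts as higher or lower when its ratio of FPKM + 1 passes 2-fold (1 on the log2 scale), among loci that reach 1 FPKM in either library. Applied to 2 libraries of 1 group, this marks 9.03% of loci (3.75% of protein-coding genes) between the WT libraries and 8.58% (3.4%) between the KO libraries, which is the size of difference that libraries of 1 group show. The comparisons with DMSO all share that library, and levels here and in the knockout table were scaled separately.

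With MC_2580 alone CLEC12A was the 1 of 5 genes compared that passed 2-fold, where 2.22% of all loci were higher and 1.73% lower (among protein-coding genes, 0.74% and 0.0104%). It stood at 0.495 FPKM in DMSO, 2.15 in MC_2580, 0.386 in RA at 0.01 uM, 0.0919 with RA at 1 uM and 1.76 in the combination. The 2 libraries with MC_2580 were thus the high ones, and the RA libraries lay under DMSO. The ratio to DMSO was 1.07 (log2) for MC_2580 and 0.88 for the combination, and since DMSO is under 1 FPKM the gene entered both comparisons through the treated library. The authors' deposited table calls CLEC12A higher in both comparisons and lower in RA at 1 uM, where it calls CLEC4A lower as well. The authors' deposited table calls 1.06% of the loci tested there for MC_2580, 6.44% for the combination and 5.08% for RA at 1 uM, in either direction.

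CLEC5A too was highest in the libraries with MC_2580. It was at 0.679 FPKM in DMSO, 2.11 in MC_2580, 0.399 in RA at 0.01 uM, 0.326 with RA at 1 uM and 2.57 in the combination. Both libraries with MC_2580 were above 2 FPKM and the other 3 under 1. The ratio to DMSO was 0.89 for MC_2580, under 2-fold, and 1.09 for the combination. The level in the 2 libraries with MC_2580 was under 3 FPKM, against 24.4 and 28.5 in the KO libraries, set across tables that were scaled separately. CLEC2B was at 1.45, 2.19, 1.24, 1.89 and 3.21 FPKM in DMSO, MC_2580, RA at 0.01 uM, RA at 1 uM and the combination. It was highest in the combination (0.78 over DMSO), short of 2-fold in all comparisons.

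RA alone left none of the 3 genes compared past 2-fold at either dose. With RA at 0.01 uM, 5.42% of all loci were higher and 3.99% lower (among protein-coding genes, 4.88% and 2.79%). With RA at 1 uM the shares were 6.63% and 4.09% (6.5% and 2.71%). The 3 genes were CLEC4D, CLEC2B and CLEC11A. The other genes, CLEC5A, CLEC4A, CLEC4E, CLEC7A and CLEC12A, were under 1 FPKM in DMSO and in both RA libraries.

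In the combination CLEC4A and CLEC7A, both under 1 FPKM in every other treatment library with a value, reached 19.5 and 2.1 FPKM. CLEC4A was at 0.427 FPKM in DMSO, 0.0907 in RA at 0.01 uM, 0.042 with RA at 1 uM and 19.5 in the combination, and its value in MC_2580 is missing because the authors' test failed there. Thus only 1 library was high, and what MC_2580 alone gives cannot be read. The ratio of the combination was 3.85 (log2) to DMSO, 4.23 to RA at 0.01 uM and 4.30 to RA at 1 uM. Of the loci that share its span, AC092111.9 was also highest in the combination, at 1.31 FPKM, and ZNF705A was at 0.0497 there. CLEC7A was at 0.0116 FPKM in DMSO, 0.0283 in MC_2580, 0.136 in RA at 0.01 uM, 0.144 with RA at 1 uM and 2.1 in the combination. Neither agent alone brought it above 0.15 FPKM. Its ratio was 1.61 to DMSO, 1.45 to RA at 0.01 uM and 1.44 to RA at 1 uM.

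Counted over the genes compared, 3 of 7 (CLEC4A, CLEC7A and CLEC5A) were higher in the combination than in DMSO and none lower, where 9.05% of all loci were higher and 4.64% lower (among protein-coding genes, 9.37% and 3.43%). Against RA at 0.01 uM it was again these 3, of 6 compared, where 5.06% of all loci were higher and 1.92% lower (4.61% and 0.367%). Against RA at 1 uM it was 4 of 6, with CLEC12A at 1.34, where 4.07% were higher and 1.84% lower (3.35% and 0.481%). All of the genes counted as higher were under 1 FPKM in the control library and were compared only because the combination library was high, so these counts describe the genes and are no support for a difference. The authors' deposited table calls 5 of the 8 genes between the combination and DMSO (6.44% of the loci the authors tested), namely CLEC5A, CLEC4A, CLEC7A and CLEC12A as higher and CLEC4D as lower.

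CLEC4D, CLEC4E and CLEC11A had their lowest level of the treatment libraries in the combination, none past 2-fold against DMSO. CLEC4D was at 1.29 FPKM in DMSO, 0.304 in MC_2580, 0.751 in RA at 0.01 uM, 0.512 with RA at 1 uM and 0.156 in the combination. DMSO was the highest library and the combination the lowest, at a ratio of -0.99, just short of 2-fold. CLEC4E was at 0.796, 0.319, 0.339, 0.237 and 0.23 FPKM in the same order of libraries and was never compared, being under 1 FPKM throughout. CLEC11A was at 309.6 FPKM in DMSO, 410.3 in MC_2580, 217.2 in RA at 0.01 uM, 210.9 with RA at 1 uM and 180.5 in the combination. MC_2580 alone was the highest library and all 3 libraries with RA were under DMSO, by ratios of -0.51, -0.55 and -0.78 in that order.

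**Figure D4:**
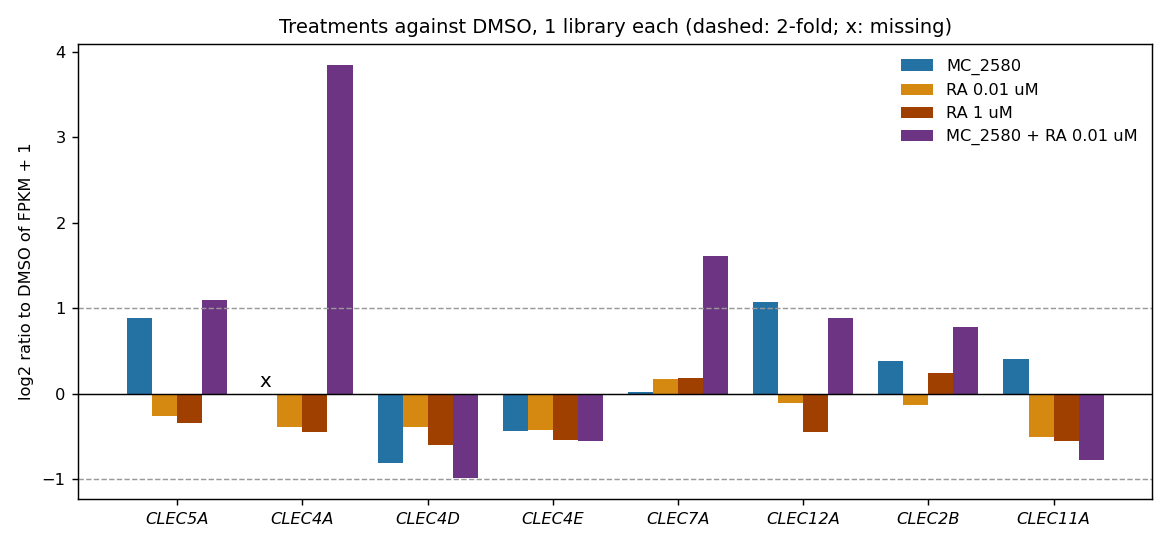
Log2 ratio of FPKM + 1 to DMSO (y axis) for the 8 genes under the 4 treatments, 1 library each, with dashed lines at 2-fold and an x for the missing CLEC4A value. The combination is past 2-fold for CLEC4A (3.85), CLEC7A (1.61) and CLEC5A (1.09), and MC_2580 alone for CLEC12A (1.07).

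The combination was also set against the sum of the log2 ratios of MC_2580 and of RA at 0.01 uM. CLEC7A lay 1.42 above the sum, where 4.52% of the 14005 loci that reached 1 FPKM in 1 of the libraries were above by 2-fold and 2.73% below. CLEC7A is among them only through the combination library, so this value describes that library and supports nothing further. The others were at 0.53 (CLEC2B), 0.46 (CLEC5A), 0.32 (CLEC4E, under 1 FPKM in each library), 0.21 (CLEC4D), -0.08 (CLEC12A) and -0.67 (CLEC11A). CLEC4A has no sum, since its value in MC_2580 is missing. All 3 ratios share the DMSO library, where CLEC7A was at 0.0116 FPKM.

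The adaptors and signalling genes of these receptors, 19 genes chosen by function, were all tested between KO and WT, and none passed in limma (median difference 0.00, against -0.02 over all loci). FCER1G (1.37) and HCST (0.87), higher in KO, and CARD9 (-0.67), PRKCD (-0.68) and VAV3 (-1.01), lower, had an unadjusted p of 0.0146 to 0.0386 in limma. Over all 13150 loci, 943 had an unadjusted p under 0.05. With MC_2580 alone 0 of the 19 genes were past 2-fold, with RA at 0.01 uM 3, with RA at 1 uM 4, and in the combination 7. All those past 2-fold were higher, and the median of the 19 in the combination was 0.54, against -0.02 over all loci. Of all loci, 2.22%, 5.42%, 6.63% and 9.05% were higher in these comparisons, in that order. TYROBP, the adaptor of CLEC5A, was at 10.8 FPKM in DMSO, 13.3 in MC_2580, 84.1 in RA at 0.01 uM, 80.0 with RA at 1 uM and 122.8 in the combination. All 3 libraries with RA were thus high, while CLEC5A was high in the 2 with MC_2580. HCST, its other adaptor, was at 17.3, 17.9, 35.2, 36.3 and 41.3 FPKM in the same order. In KO cells, where CLEC5A rose, TYROBP was at 15.1 and 14.3 FPKM against 24.9 and 17.7 in WT (-0.48, SE 0.22, adjusted p 0.802 in limma). HCST was at 55.7 and 34.8 against 23.7 and 23.6 (0.87, SE 0.28, adjusted p 0.654 in limma).

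FCER1G, the adaptor of CLEC4D and CLEC4E, was at 14.8 FPKM in DMSO, 29.4 in MC_2580, 19.0 in RA at 0.01 uM, 30.1 with RA at 1 uM and 110.7 in the combination (ratio to DMSO 2.82). FCER1G was highest in the combination, the library in which CLEC4D was lowest. CLEC4E was at 0.23 FPKM there and at nearly the same level, 0.237, with RA at 1 uM. In the knockout table FCER1G was at 70.8 and 50.4 in KO and 29.8 and 17.0 in WT, without overlap (1.37, SE 0.36, adjusted p 0.548 in limma). PTPN6, the phosphatase recruited by inhibitory receptors, had a ratio of 1.59 in the combination and 1.46 in RA at 0.01 uM. The kinase LYN stood at 71.7 FPKM in the combination, against 24.5 to 36.9 in the other treatment libraries (ratio 1.51), and NFATC2, a transcription factor downstream, at 18.2 against 8.01 in DMSO (1.09). SYK and CARD9, the shared kinase and relay, are named for their place in the pathway and not for their values: in the combination their ratios were 0.74 and 0.54, and in KO their differences were 0.49 and -0.67 (adjusted p 0.714 and 0.551 in limma).

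Of 15 genes that the pathway switches on, 4 were tested in the knockout table, and none passed in limma or had an unadjusted p under 0.05 (median -0.67). In the combination 5 of 8 compared were higher than in DMSO and none lower, where 9.05% of all loci were higher and 4.64% lower. IL1B and CCL4 (0.708 FPKM in DMSO) were compared only because the combination library was high. IL1B, the interleukin, was at 0.623 FPKM in DMSO, 2.2 in MC_2580, 2.68 in RA at 0.01 uM, 4.02 with RA at 1 uM and 24.4 in the combination (3.97). Like CLEC4A and CLEC7A it was highest in the combination. The chemokine genes CCL4 (3.16), CXCL8 (2.60, IL8 in the tables) and CCL3 (2.34) and the NF-kB inhibitor NFKBIA (1.79) were the other 4. RA alone, at 0.01 and 1 uM, gave ratios to DMSO of 2.02 and 2.58 for CCL4 and 1.44 and 2.25 for CXCL8. CCL3 (0.08 and 0.64) and NFKBIA (0.23 and 0.73) stayed under 2-fold there. TNF, named after its values were seen and read at the highest of its 3 loci, went the other way with RA alone. It was at 93.6 FPKM in DMSO, 19.3 in RA at 0.01 uM (-2.22) and 22.8 with RA at 1 uM (-1.99). In the combination it was at 103.9 (0.15). These genes answer to many other signals.

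**Figure D5:**
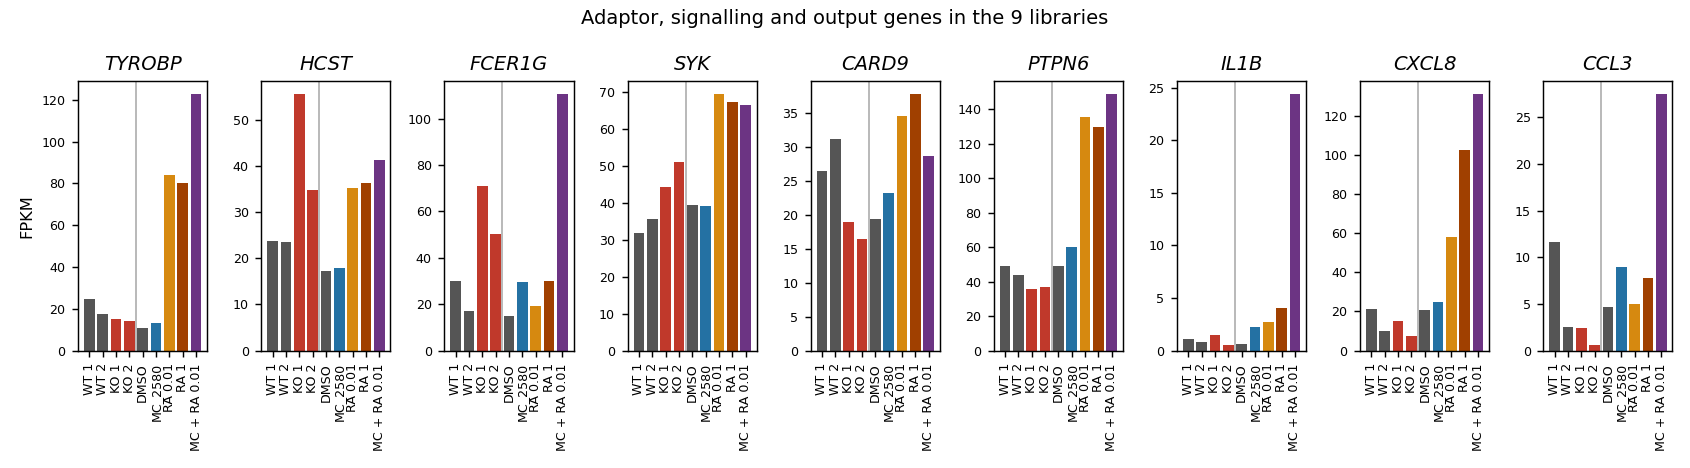
FPKM (y axis from 0, its range differing between panels) of adaptors, signalling genes and cytokine genes in the 9 libraries, 1 bar per library, with a vertical line between the 2 tables. TYROBP is at 80.0 or more in the 3 libraries with RA and under 25 elsewhere, FCER1G reaches 110.7 in the combination, and IL1B reaches 24.4 there and is under 5 elsewhere.

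Among 54 other genes with a C-type lectin domain, the knockout table has 50 and that of the treatments 49, and most were near 0. In KO none of the 11 tested passed in limma (median 0.10). An unadjusted p under 0.05 was seen for PRG2, the eosinophil granule major basic protein, at 174.5 and 216.7 FPKM in KO against 1516.5 and 1713.3 in WT (-3.04, SE 0.23, adjusted p 0.0761 in limma). In the combination 6 of 12 compared were higher and 1 lower than in DMSO, where 9.05% of all loci were higher and 4.64% lower. THBD (4.38) and CD93 (3.21), which encode thrombomodulin and a surface protein of myeloid and endothelial cells, were high in all 3 libraries with RA, at 34.7 to 59.3 and 44.8 to 63.8 FPKM. ASGR2 (1.65), a subunit of the asialoglycoprotein receptor, was at 14.5 FPKM in the combination, 3.94 in DMSO and 0.832 in RA at 0.01 uM. SELP (1.40) was listed at 0 in DMSO and in MC_2580. It was at 1.14 in RA at 0.01 uM and 1.64 in the combination, and highest with RA at 1 uM (5.46). PRG2 was lower in the combination than in DMSO (-1.76).

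Markers of other cells were read beside these values. In bulk libraries, more cells of a type and more RNA per cell cannot be told apart. In the combination, where CLEC4A and CLEC7A were high, 4 of 6 neutrophil markers were at or above 1 FPKM. The list summed to 224.7 there, against 53.4 to 88.6 in the other treatment libraries, and CSF3R is missing in the 3 libraries with RA. Most of the sum in the combination came from ITGAM (136.1) and MMP9 (78.2), with CXCR2 at 6.55, FPR1 at 3.67 and CEACAM8 at 0.14. Monocyte and macrophage markers summed to 29.5 there (3 of 6 at 1 FPKM or more), against 1.19 to 14.4, with CSF1R missing in DMSO and CD14 missing in RA at 1 uM; CD14 was at 3.03 in the combination and 0.221 or less elsewhere, while CD163, FCGR3A and VCAN were at or near 0. The 6 dendritic cell markers summed to 1.17 in the combination, with FCER1A and CLEC9A at 0. Their part in the results was not tested. In the knockout table, where CLEC5A rose, monocyte and macrophage markers summed to 2.55 and 3.86 in KO and 2.73 and 4.65 in WT. T and natural killer cell markers summed to 229.3 and 294.2 in KO and 102.6 and 167.4 in WT, with 5 of 8 at 1 FPKM or more in KO and 4 in WT, and CD3E at 0.0824 or less. Within that list CD3D was at 212.9 and 172.5 FPKM in KO and 114.5 and 69.0 in WT. CD3G was at 12.9 and 13.6 against 1.28 and 1.05 (2.72, SE 0.17, adjusted p 0.0589 in limma). CD2 was at 3.45 and 3.06 against 0.0724 and 0.0602 (adjusted p 0.158 in limma). NCAM1 went the other way, at 2.2 and 2.42 in KO against 3.56 and 4.68 in WT (-0.62, adjusted p 0.675 in limma). NKG7 overlapped, at 62.7 and 37.5 in KO against 47.9 and 27.7 in WT. B cell markers summed to 23.7 and 31.8 in KO and 14.6 and 19.5 in WT, and to 54.7 to 78.8 in the libraries with RA against 10.4 and 12.6 in DMSO and MC_2580, with MS4A1 at 0. Of these CD79A was at 7.87 and 8.77 in KO and 1.79 and 1.43 in WT (adjusted p 0.114 in limma). CD79A was at 1.62 in DMSO, 2.33 in MC_2580, 50.0 in RA at 0.01 uM, 55.2 with RA at 1 uM and 73.4 in the combination. CD79B of the same list went the other way with RA. It was at 8.65 in DMSO, 10.1 in MC_2580, 4.38 in RA at 0.01 uM, 2.74 with RA at 1 uM and 5.03 in the combination. In KO it was at 23.2 and 14.7 against 17.3 and 12.9 in WT (0.29, adjusted p 0.901 in limma). CD3D, CD3G, CD2, NCAM1, NKG7, CD79A and CD79B are named after their values were seen, and the part of the lists in the results was not tested. Over all libraries, platelet and erythroid markers summed to 3.28 to 15.1, and fibroblast markers to 1.82 or less.

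For the genes that reached 5 FPKM in a library, the protein-coding genes with the most similar pattern were found by the root mean square difference of log2(FPKM + 1), centred on each table's mean. For CLEC5A, over 9 libraries and 8345 genes, they were CKAP4 (0.28), IGSF3 (0.29) and SLC18B1 (0.40, C6orf192 in the tables), each at 6.27 FPKM or more in KO and under 1 in WT. For CLEC4A, over the 8 libraries with a value, they were CD86 (0.29), SLC15A3 (0.34) and HP (0.36), at 27.3, 16.1 and 15.9 FPKM in the combination. In MC_2580 alone, where CLEC4A has no value, these 3 genes were at 1.93, 1.47 and 0.365 FPKM. For CLEC2B they were SPINK2 (0.28), PERP (0.28) and NFATC4 (0.31), which like it were higher in replicate 1 of each group. For CLEC11A they were IGFBP7 (0.15), GCNT1 (0.16) and IFT81 (0.16). These distances describe libraries that share their processing, and have no test.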

How the data were processed

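Per the file headers, the values the authors deposited are FPKM, with a p-value and q-value for 1 library against another. The treatment q-values exceed 1 and are taken as a score of the authors' own, used only through their calls. Build hg18, Cuffdiff, Cufflinks, TopHat2 2.0.10, TopHat 1.3.1 and CASAVA 1.8 are listed in the submitters' processing notes, without roles. The authors added 0.001 FPKM to each value of the knockout table, which was taken off. Values with a failed status were set to missing (1039 treatment loci with a missing library, 8 knockout loci). Depth is unknown, as no read totals are given. Locus starts count from 0 in the files and 1 was added.

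KO and WT were compared in limma 3.58.1 (trend, R 4.3.3) on log2(FPKM + 1) for loci whose mean reached 1 FPKM in a group, at a Benjamini-Hochberg adjusted p of 0.05. The fit was tested on simulated data. Treatments have no test. Symbols were matched to RefSeq names and unambiguous synonyms (20627 and 20636 loci). The genes and the 12 lists (141 entries) were chosen with earlier results of these data known. Named genes are the 8 genes, list genes that pass the KO test or 2-fold in the combination at 5 FPKM or more (at most 6 a list), the 3 most similar genes each, and those said to be chosen otherwise; 1 list gene counted in its list is not reported here by name. Alternatives were other pseudocounts, filters, folds and scalings, protein-coding genes only, a replicate block, leaving out each library, and the authors' calls. Other steps used matplotlib 3.10.9, numpy 2.4.6, pandas 2.3.3 and Python 3.11.15.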

Additional observations from a re-analysis of the deposited data

Results flagged for a closer look

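For 3 of the genes the level differed one way with an agent alone and the other way beside the second agent, on 1 library each, so the difference was not tested. With RA at 0.01 uM CLEC5A was lower without MC_2580 (-0.26, log2 of FPKM + 1) and higher with MC_2580 (0.20), a gap of 0.46. CLEC2B did the same, at -0.13 without and 0.40 with MC_2580, a gap of 0.53. MC_2580 went with a higher CLEC11A without RA (0.41) and a lower one with RA at 0.01 uM (-0.27), a gap of -0.67. All 6 of these ratios are under 2-fold, a size that 8.58% to 9.03% of loci exceed between libraries of 1 group. The CLEC5A ratio without MC_2580 sets 0.399 against 0.679 FPKM, both under 1, and was not among those compared above. The 3 gaps are the same values as the distances from the sum given above, and no further result.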

How the results depend on the processing

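The count of 15 loci called between KO and WT in limma became 38 with a pseudocount of 0.1, 35 with 0.5, 7 with a filter at 5 FPKM, 59 among protein-coding genes and 60 by the authors' calls in both pairs. It became 0 with no filter (1719 loci at an unadjusted p under 0.05), 0 with the replicate block (3196 unadjusted), and 0 to 0 without each library in turn (653 to 800 unadjusted). Of the 8 C-type lectin genes, the 1 called (CLEC5A) became 0 with no filter, 0 with the filter at 5 FPKM, 0 with the replicate block (adjusted p 0.125), and 0 to 0 without each library; with the other settings it stayed 1. The numbers shared by KO and WT replicates are not said to pair them, and the differences between replicates 1 and 2 of the 2 groups correlate at 0.21 across loci. Without 1 library CLEC4D ranged from -0.19 (without WT replicate 1, reversed) to 0.60, and CLEC4E from -0.36 to 0.16 (without WT replicate 2, reversed). CLEC2B ranged from 1.36 to 2.93 over its 11 alternatives and passed in none.

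Counts of the C-type lectin genes past 2-fold also moved. For MC_2580 against DMSO the 1 became 3 with a pseudocount of 0.1, 3 with 0.5 (each 2 higher and 1 lower) and 0 at 4-fold. For RA at 1 uM the 0 became 1 with a pseudocount of 0.1 and 2 by the authors' calls, all lower. For the combination against DMSO the 3, all higher, became 6 with a pseudocount of 0.1 (5 higher, 1 lower), 5 with 0.5 (4 higher, 1 lower), 1 at 4-fold and 5 by the authors' calls (4 higher, 1 lower). Against RA at 0.01 uM the 3 became 5 with a pseudocount of 0.1, 5 with 0.5 (all higher), 1 at 4-fold and 5 by the authors' calls (4 higher, 1 lower), and against RA at 1 uM the 4 became 1 at 4-fold. Except for the pseudocounts, filters and folds, which by construction let low genes in or out, the cause was not tested. The count above the sum stayed 1 under its 3 alternatives. Most of these genes lie near 1 FPKM, where 1 library without read totals gives no error.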
